A study of Mus musculus with 24 samples.

Results

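Mouse liver cells labelled CD11b+ Ly6G+ were compared between the fourth and the second day after partial hepatectomy. CD11b and Ly6G are the surface pair used for granulocytic myeloid-derived suppressor cells. By the marker genes given below, most of the compared libraries also held much endothelial RNA. The comparison took the 6 libraries labelled hepatectomy at postoperative day (POD) 4 and POD2, with 3 on each day, out of 24 libraries in the series, and covered all genes with enough counts. Both groups came from wild-type male BALB/C mice, 8 weeks old, that had lost 70% of the liver. They differ by label only in the day, POD4 (day 4) against POD2 (day 2). Sham mice of the same strain, sex and age, opened at the midline without resection, gave 3 libraries on each of the same days. Cells were taken from the non-parenchymal fraction of collagenase-digested liver with magnetic columns, and poly-A RNA was sequenced. The labels do not say whether the 3 libraries of a group came from separate mice or from pools, so p-values measure only the spread between these libraries, which may be technical. The 6 libraries held 13482074 to 16660194 counted reads, and all 24 held 10390216 to 16949088.

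After part of the liver is removed, the remaining liver grows back. Hepatocytes enter the cell cycle first and sinusoidal endothelial cells, which line the liver's capillaries, follow later. Neutrophils and related granulocytic cells, monocytes and resident macrophages (Kupffer cells) accumulate or change state in the remnant over the same days. A dividing cell first copies its DNA in S phase, for which one set of genes is switched on, and then builds a spindle and parts its chromosomes in G2 and mitosis, for which a later set is switched on.

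The cell label was checked against 17 marker lists. Levels are in CPM, the reads of a gene per fixed number of reads in the library, scaled between libraries by the trimmed mean of M-values (TMM) over all 24 libraries, and library values follow replicate order 1, 2, 3 in each group. The 20 neutrophil markers summed to 109100, 17970 and 26630 CPM at POD4, and to 39190, 25660 and 30650 CPM at POD2. The 19 markers of sinusoidal endothelium summed to 4581, 28610 and 22740 CPM at POD4, and to 24620, 29090 and 25740 CPM at POD2. Replicate 1 of POD4 therefore stood far above the other 5 libraries in neutrophil markers and far below them in endothelial markers. In the other 5 the endothelial sum was of the same order as the neutrophil sum. It exceeded the neutrophil sum in replicate 2 of POD4 and in replicate 2 of POD2. The cell label therefore covers only part of the RNA in these 5 libraries. No neutrophil or sinusoidal marker was at 0 in any of the 6 libraries. Each library is a bulk sample in which fewer cells of a type and less RNA per cell cannot be told apart. Fcer1a of mast cells and basophils was at 0 in 5 of the 6 libraries and Ms4a2 in all 6.

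**Figure D1:**
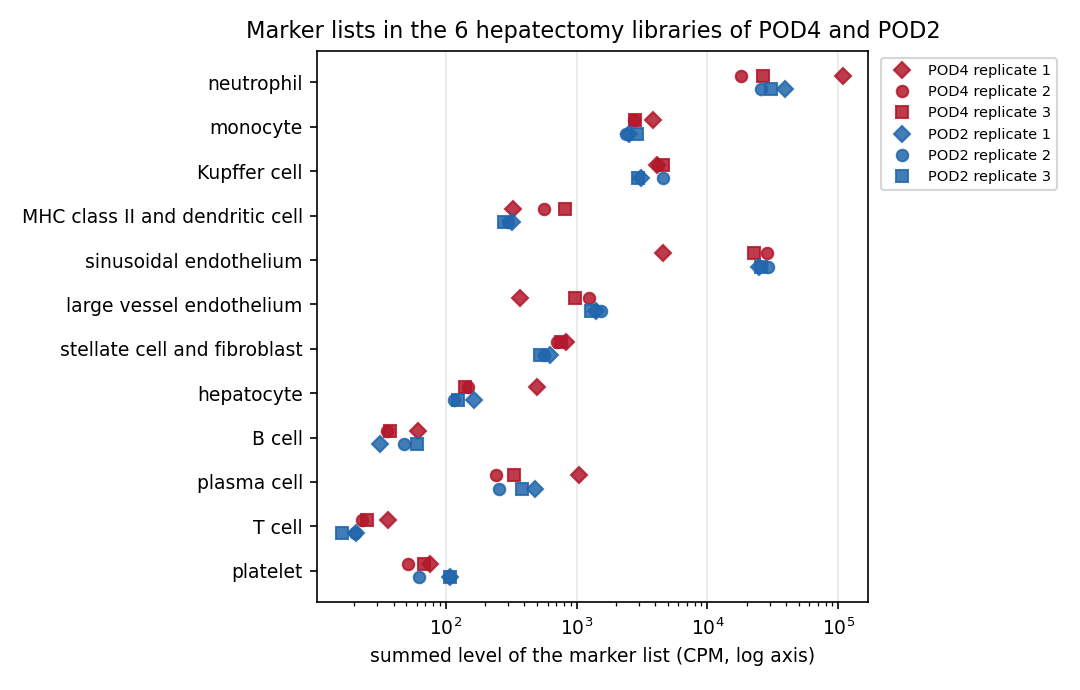
Summed level of 12 marker lists (CPM, log axis) in each of the 6 hepatectomy libraries, POD4 in red above POD2 in blue, with a symbol for each replicate number. Replicate 1 of POD4 lies apart from the other 5 libraries at 109100 CPM of neutrophil and 4581 CPM of sinusoidal markers.

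Across all genes the 24-library edgeR fit called no difference between POD4 and POD2 after hepatectomy. Of 14325 genes tested with edgeR's quasi-likelihood test, 0 (0%) passed a Benjamini-Hochberg adjusted p of 0.05, and 230 had an unadjusted p under 0.05. DESeq2 called 6 genes higher and 0 lower at POD4 in the same libraries, among them Col14a1, and limma voom with quality weights, which gives less weight to a library far from its group, called 413 higher and 112 lower. Without replicate 1 of POD4 the fit of the other 23 libraries again called 0 of 14607 genes (0%), with 244 at an unadjusted p under 0.05. DESeq2 then called 1 higher and 1 lower, and voom 229 higher and 46 lower. The common coefficient of variation between replicates was 0.478 over the 24 libraries, a value that all 8 groups set together.

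Fitted by themselves, the 5 hepatectomy libraries without replicate 1 of POD4 had a common coefficient of variation of 0.146. In this 5-library edgeR fit, with 3 residual degrees of freedom, 218 of 13399 genes (1.63%) were higher at POD4 and 44 (0.328%) were lower at an adjusted p under 0.05, or 1.96% in either direction. The fold change had a median of -0.00404 on the log2 scale over all genes, and 1719 genes (12.8%) had an unadjusted p under 0.05. Of the 218 higher genes, voom over all 24 libraries also called 186 (85.3% of the 218 and 45% of its own 413), and of the 44 lower genes it called 30. The 24 libraries include these 5, so calls shared with voom, here and below, are no independent evidence. The gene results that follow are from this 5-library fit unless another is named, and fold changes are log2 of POD4 over POD2 ± an approximate standard error (SE).

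A single library decided these calls in several ways. With replicate 1 of POD4 added back, the 6-library edgeR fit called 0 of 13173 genes (0%), with 460 at an unadjusted p under 0.05. Without replicate 3 of POD2 edgeR called 0 of 13398 genes, with 1382 at an unadjusted p under 0.05 and a smallest adjusted p of 0.0666, voom called 0, and DESeq2 called 164 higher and 65 lower. Without replicate 3 of POD4 edgeR called 44 higher and 9 lower. Leaving out replicate 2 of POD2 gave 355 higher and 256 lower, leaving out replicate 1 of POD2 gave 220 and 51, and leaving out replicate 2 of POD4 gave 194 and 14. Replicate 1 of POD4 itself lay above all 3 POD2 libraries for 93 of the 218 higher genes, within their range for 58 and below them for 67. For the 44 lower genes it lay above for 8, within for 15 and below for 21 (47.7%). Over all 13399 genes it lay above for 5144 (38.4%) and below for 6366 (47.5%).

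**Figure D2:**
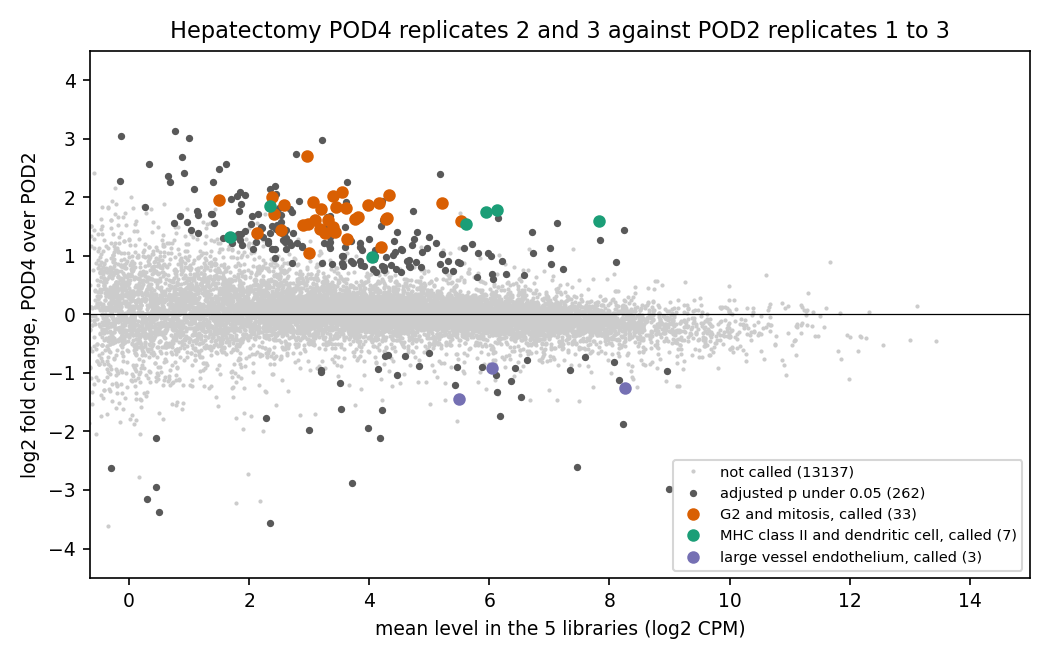
Log2 fold change of POD4 (replicates 2 and 3) over POD2 (replicates 1 to 3) against the mean level (log2 CPM) for the genes of the 5-library fit, where each point is a gene. The 33 called G2 and mitosis genes and the 7 called MHC class II genes lie above 0 and the 3 called large vessel genes below it. The axes leave out genes of very low level and 1 gene past the fold axis.

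Genes of G2 and mitosis were the list with the most called members of the 37. Of 44 on the list, all 44 passed the filter on low counts, 33 were higher at POD4, 0 were lower and 11 did not pass, against 1.63% of all genes called higher. The list's median fold change was 1.60, against -0.00404 over all genes, and in the 24-library fit, where 0 were called, it was 1.19 against 0.02. Cenpf, a kinetochore protein of mitosis, stood at 2.84, 9.6 and 15.5 CPM at POD4, against 1.21, 2.23 and 2.34 CPM at POD2 (2.70 ± 0.29, edgeR adjusted p = 0.0043). Top2a, the topoisomerase that untangles replicated chromosomes, stood at 14.1, 47.9 and 61.4 CPM at POD4, against 9.86, 20.4 and 13.5 CPM at POD2 (1.90 ± 0.24, edgeR adjusted p = 0.00563). In both genes replicates 2 and 3 of POD4 lay well above every POD2 library, while replicate 1 of POD4 lay just above them for Cenpf and inside their range for Top2a.

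The called genes covered the successive steps of division. Foxm1, a transcription factor that switches on G2 and mitosis genes, stood at 5.18, 18.5 and 27.1 CPM at POD4, against 4.84, 7.47 and 6.45 CPM at POD2 (1.86 ± 0.21, edgeR adjusted p = 0.00457). Ccna2, the cyclin of S and G2 phase, stood at 6.76, 20.1 and 31.7 CPM at POD4, against 6.11, 9.1 and 5.47 CPM at POD2 (1.91 ± 0.24, edgeR adjusted p = 0.00563). Replicate 1 of POD4 lay within the POD2 range for both. Its kinase partner Cdk1 rose by 1.15 ± 0.18, the mitotic kinases Plk1, Aurkb and Bub1 by 1.49, 1.39 and 2.01, and the spindle motors Kif11 and Cenpe by 1.80 and 1.92. Cdc20, which activates the ubiquitin ligase that ends metaphase, rose by 1.46 ± 0.21. Prc1, which bundles the microtubules of the midzone before the cell divides, rose by 2.04 ± 0.23, and Anln, a protein of the contractile ring, by 1.81 ± 0.24. Nusap1, Knstrn and Ckap2, which act on the spindle, rose by 2.02, 2.08 and 2.74. Mki67, the proliferation marker, stood at 37.7, 55.0 and 71.9 CPM at POD4, against 13.1, 28.3 and 21.6 CPM at POD2 (1.60 ± 0.26, edgeR adjusted p = 0.0119), so that here all 3 POD4 libraries lay above all 3 POD2 libraries.

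Fam64a, with 3.26, 10.7 and 20.5 CPM at POD4 against 1.33, 2.65 and 1.89 CPM at POD2, had the highest fold change of the genes selected by size (2.98 ± 0.32, edgeR adjusted p = 0.0043). Iqgap3, a scaffold protein, rose by 2.27 ± 0.27, Prr11 by 1.93 ± 0.24 and Cdkn2c, an inhibitor of the cyclin D kinases, by 1.61 ± 0.18. For Cdkn2c replicate 1 of POD4, at 8.85 CPM, lay within the POD2 range of 6.71 to 9.58 CPM, below the 22.1 and 29.0 CPM of POD4 replicates 2 and 3.

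The G2 and mitosis count rested on few libraries too. It was 0 of 44 with edgeR and with voom, and 32 with DESeq2, without replicate 3 of POD2, where the median fold change was 1.55. It was 13 without replicate 3 of POD4 and 0 with replicate 1 of POD4 added back. With the endothelial score (the mean log2 level of the sinusoidal markers) as a covariate it was 22, and with voom over all 24 libraries 38. Replicates 2 and 3 of POD4 both lay above all 3 POD2 libraries for 40 of the 44 genes, against 16.2% of all genes, but all 3 POD4 libraries did so for only 4 of the 44, against 5.4% of all genes. Replicate 1 of POD4 lay above the POD2 range for 6 of the 44, within it for 24 and below it for 14.

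Promoters of this list are shown because many genes of late cell cycle carry, near the start site, the CHR element (TTTGAA), to which repressing and activating cell-cycle complexes bind, and often a CCAAT box upstream. RefSeq promoters (GRCm38.p6, 250 bases before to 50 after the start) were found for 38 of the 44 genes, in 41 windows. TTTGAA or its reverse complement TTCAAA stood in 31 of the 41 windows (75.6%), against 17.9% of all 32851 promoter windows. CCAAT or its reverse complement ATTGG stood in 33 of the 41 (80.5%), against 37.4% of all windows, and both motifs stood in 28 (68.3%), against 6.95%. Among the 41 windows of the S phase list, TTTGAA or TTCAAA stood in 5 (12.2%). The motifs can share 1 base. In the stretches that follow, from 120 bases before to 10 after the start and read 5′ to 3′ on the gene's strand, capitals mark either motif. Cenpf lay at chr1:189688077-189688206 on the minus strand. Prc1 lay at chr7:80294331-80294460 on the plus strand. Cdc20 lay at chr4:118437334-118437463 on the minus strand. Kif11 lay at chr19:37376262-37376391 on the plus strand. Cdk1 lay at chr10:69352903-69353032 on the minus strand. A match describes the letters and is no evidence of binding.
Cenpf: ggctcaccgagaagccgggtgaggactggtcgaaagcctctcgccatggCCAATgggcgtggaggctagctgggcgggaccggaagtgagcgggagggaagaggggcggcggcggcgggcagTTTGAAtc
Prc1: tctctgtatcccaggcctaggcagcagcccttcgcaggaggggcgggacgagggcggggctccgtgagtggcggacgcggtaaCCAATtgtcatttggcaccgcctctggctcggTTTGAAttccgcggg
Cdc20: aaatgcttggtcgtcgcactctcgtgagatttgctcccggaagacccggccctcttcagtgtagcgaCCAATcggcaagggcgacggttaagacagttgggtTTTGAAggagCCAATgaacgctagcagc
Kif11: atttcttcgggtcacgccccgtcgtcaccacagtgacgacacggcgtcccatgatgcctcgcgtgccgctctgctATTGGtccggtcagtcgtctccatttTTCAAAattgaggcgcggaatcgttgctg
Cdk1: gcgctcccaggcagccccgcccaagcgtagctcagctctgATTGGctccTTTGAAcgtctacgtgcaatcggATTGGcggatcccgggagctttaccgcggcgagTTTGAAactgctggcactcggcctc

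Cdk1 holds both motifs more than once in its stretch, while in Cenpf the TTTGAA lies just after the start site. Cenpf, Prc1, Cdc20, Kif11 and Cdk1 were all called higher at POD4, with fold changes of 2.70, 2.04, 1.46, 1.80 and 1.15. They were picked by hand for display, so their calls say nothing about the motifs. In the 28 windows of called genes of the list, TTTGAA or TTCAAA stood in 22 (78.6%), against 75.6% for the whole list. CCAAT or ATTGG also stood in 22 (78.6%), against 80.5%. Both motifs were thus about as common among called genes as in the whole list.

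The same list was followed over all 24 libraries. Its mean log2(CPM + 1) was 1.07 to 1.12 in the 3 hepatectomy libraries of POD1, 2.36 to 2.86 at POD2, 2.33, 3.69 and 2.53 at POD3, and 2.55, 3.62 and 4.06 at POD4. In sham libraries it was 1.31 to 1.83 at POD1, 1.57 to 1.71 at POD2, at most 1.52 at POD3, and 1.61, 2.08 and 3.48 at POD4. Replicate 2 of hepatectomy POD3 and replicate 3 of sham POD4 thus reached levels near replicate 2 of hepatectomy POD4. The sinusoidal markers summed to 28000 CPM and the neutrophil markers to 13220 CPM in that hepatectomy POD3 library, but to 2761 and 180200 CPM in that sham POD4 library. High levels of the list therefore occurred in libraries rich in either marker set, and which cells carried them was not tested.

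**Figure D3:**
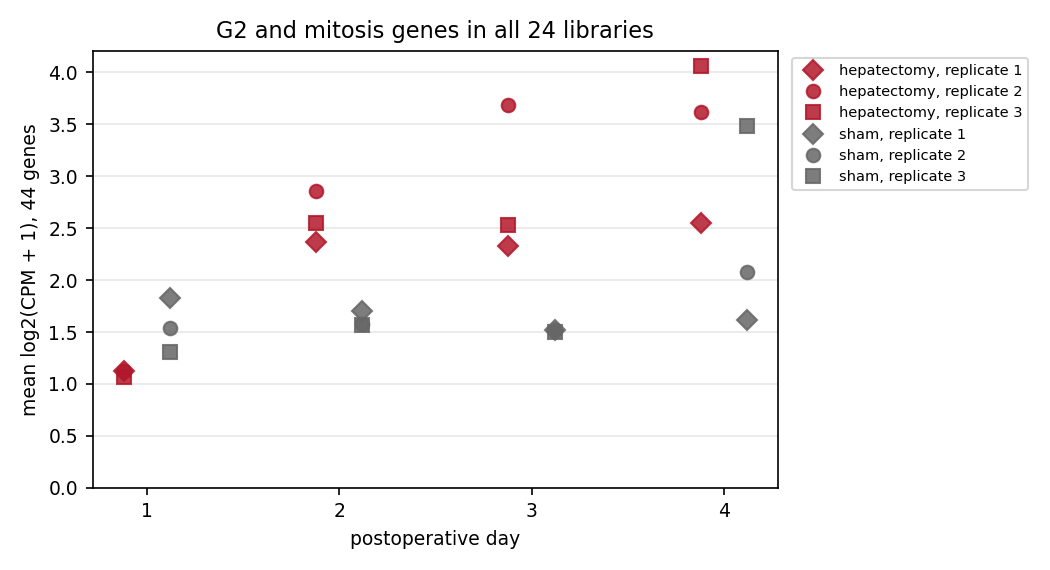
Mean log2(CPM + 1) of the 44 G2 and mitosis genes in each of the 24 libraries against postoperative day, hepatectomy in red left of sham in grey, with a symbol for each replicate number. Hepatectomy POD4 spans 2.55 to 4.06 and hepatectomy POD2 spans 2.36 to 2.86, and replicate 3 of sham POD4 stands at 3.48.

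S phase genes differed less. Of 40 on the list, all tested, 7 were higher at POD4, 0 were lower and 33 did not pass, against 1.63% of all genes called higher. The median fold change was 0.38, against 0.04 in the 24-library fit. Clspn, a checkpoint protein of the replication fork, rose by 1.47 ± 0.22 and Rrm2, the ribonucleotide reductase subunit that supplies deoxynucleotides, by 1.22 ± 0.20. Rrm2 stood at 6.18, 15.8 and 19.8 CPM at POD4, against 7.56, 9.34 and 5.93 CPM at POD2. Chaf1b, which loads histones on new DNA, rose by 0.82 ± 0.16 and E2f1, which drives entry into S phase, by 0.77 ± 0.16. For all 4 of these genes replicate 1 of POD4 lay within or below the POD2 range. Over the list it lay below all POD2 libraries for 33 of the 40 genes.

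Genes of MHC class II antigen presentation were higher at POD4. MHC class II molecules present peptides to CD4 T cells and are made by dendritic cells, B cells and activated macrophages. Of 16 genes on the MHC class II and dendritic cell list 13 were tested, 7 were higher, 0 were lower and 6 did not pass, against 1.63% of all genes called higher, and the median fold change was 0.97. The 7 were all class II presentation genes, and the 6 that did not pass were all markers of dendritic cells. Of the 13, 10 had a fold change above 0. In 2 of the 13, replicates 2 and 3 of POD4 both lay below all POD2 libraries. H2-Aa, the alpha chain of the I-A molecule, stood at 46.7, 76.5 and 124 CPM at POD4, against 31.7, 27.7 and 27.8 CPM at POD2 (1.78 ± 0.19, edgeR adjusted p = 0.0043). H2-Ab1, its beta chain, stood at 39.3, 67.7 and 109 CPM at POD4, against 29.5, 26.6 and 22.3 CPM at POD2 (1.75 ± 0.20, edgeR adjusted p = 0.00456). Cd74, the invariant chain that escorts class II molecules, stood at 164, 255 and 376 CPM at POD4, against 119, 98.7 and 94.2 CPM at POD2 (1.60 ± 0.19, edgeR adjusted p = 0.00489). In all 3 the POD4 and POD2 libraries did not overlap, replicate 1 of POD4 included.

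The same held for the other 4 called genes. The 7 were called from 5 of these libraries, so only the place of replicate 1 of POD4 is further information, and it lay above all POD2 libraries for 93 of all 218 genes called higher (42.7%). H2-Eb1 rose by 1.55 ± 0.22, and H2-DMa and H2-DMb1, which load the peptide, by 0.97 ± 0.18 and 1.85 ± 0.29. Ciita, the transcription factor that switches class II genes on, stood at 2.67, 3.86 and 3.9 CPM at POD4, against 1.21, 1.39 and 2.08 CPM at POD2 (1.32 ± 0.29, edgeR adjusted p = 0.0482). H2-Aa and H2-Ab1 lie beside each other on chromosome 17 of GRCm38, at 34282744 to 34287823 and 34257689 to 34269419. The count of 7 was 0 with edgeR and voom and 6 with DESeq2 without replicate 3 of POD2, where the median was 0.91. It was 4 without replicate 3 of POD4, 0 with replicate 1 of POD4 added back, 0 in the fit of 9 libraries described at the end, and 7 with voom over all 24 libraries. The B cell markers, another source of class II, summed to 61.4, 35.9 and 37.9 CPM at POD4 and to 31.8, 48.2 and 60.6 CPM at POD2, with none of the 12 called.

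Of the 46 interferon-stimulated genes on the list, all tested, 3 were higher (Iigp1, Gbp3 and Gbp5), 0 were lower and 43 did not pass, against 1.63% of all genes called higher, with a median of 0.28. Cxcl9, which is on the cytokine list, is a chemokine induced by interferon gamma that attracts T cells, and stood at 5.68, 39.2 and 76.6 CPM at POD4, against 7.75, 16 and 9.25 CPM at POD2 (2.39 ± 0.31, edgeR adjusted p = 0.00563). Iigp1, an immunity-related GTPase, stood at 14.1, 63.6 and 135 CPM at POD4, against 23.8, 42.7 and 28.3 CPM at POD2 (1.65 ± 0.30, edgeR adjusted p = 0.0209). For both genes replicate 1 of POD4 was the lowest of the 6 libraries and the other POD4 libraries were the highest. The guanylate-binding proteins Gbp3 and Gbp5 rose by 1.22 ± 0.23 and 1.19 ± 0.26, and Cxcl10, also of the cytokine list, by 1.41. Tgtp2, which is on neither list, rose by 1.92 ± 0.32, though reads of this GTPase may be split with a near-identical copy.

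Few macrophage and monocyte genes were called. Of the 16 Kupffer cell markers 1 was higher, Adgre1, and of the 15 monocyte markers 1 was higher, Ms4a6c, and 1 lower, Vcan, against 1.63% of all genes called higher and 0.328% lower, with medians of 0.34 and 0.42. Ms4a7, a membrane protein of macrophages, stood at 13.3, 25.4 and 28.9 CPM at POD4, against 10.3, 5.18 and 5.73 CPM at POD2 (1.93 ± 0.24, edgeR adjusted p = 0.00563). Adgre1, which encodes F4/80 of mouse macrophages, stood at 86.6, 130 and 123 CPM at POD4, against 49.1, 77.4 and 57.1 CPM at POD2 (1.05 ± 0.18, edgeR adjusted p = 0.0175). All 3 POD4 libraries lay above all 3 POD2 libraries for both genes, as they did for 5.4% of all genes. C3ar1, the receptor of complement C3a, rose by 0.88 ± 0.14, Ccl7, a monocyte chemokine, by 1.13 ± 0.18 and Ms4a6c by 0.83 ± 0.17. Csf1r, the receptor that maintains macrophages, stood at 766, 614 and 632 CPM at POD4 and 393, 476 and 411 CPM at POD2 and did not pass (edgeR adjusted p = 0.158). Nor did Ccr2, the receptor that draws monocytes from the blood (1.10 ± 0.25, edgeR adjusted p = 0.0534).

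Ltf, Ngp and Camp, granule genes of maturing neutrophils, rose. The other neutrophil markers did not pass, and none of them had a fold change above 0. Ltf, lactoferrin of the secondary granules, stood at 964, 161 and 221 CPM at POD4, against 66.8, 62.5 and 65 CPM at POD2 (1.56 ± 0.16, edgeR adjusted p = 0.0043). Ngp, the neutrophilic granule protein, stood at 2270, 338 and 470 CPM at POD4, against 176, 136 and 132 CPM at POD2 (1.45 ± 0.19, edgeR adjusted p = 0.00604). Camp, the cathelicidin precursor, stood at 175, 37.9 and 44.1 CPM at POD4, against 20.5, 15.7 and 13 CPM at POD2 (1.32 ± 0.18, edgeR adjusted p = 0.00672). For these genes the groups did not overlap in any of the 6 libraries, and replicate 1 of POD4 was far the highest. Cybb, the catalytic subunit of the phagocyte oxidase, was also separated in all 6 and rose by 0.77 ± 0.15. Replicate 1 of POD4 lay above all POD2 libraries for all 20 neutrophil markers. It did so for all 25 secondary and tertiary granule genes tested, so its place adds no information for these genes.

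S100a8, an abundant calcium-binding protein of neutrophils, stood at 16600, 2260 and 3370 CPM at POD4 and 6180, 3450 and 3470 CPM at POD2 (-0.63 ± 0.31, edgeR adjusted p = 0.433). Its partner S100a9 had a fold change of -0.46 ± 0.30, Ly6g, the surface antigen used in the sort, -0.37 ± 0.29, and Itgam, which encodes CD11b, -0.57 ± 0.23. The POD4 libraries lay on both sides of POD2 for these genes, and with replicate 1 of POD4 in the 24-library fit their fold changes turned positive at 0.77, 0.77, 1.10 and 0.37, none of them called. Of the 20 neutrophil markers 3 were higher (Ltf, Ngp and Camp) and 0 lower, with a median of -0.46. Of 25 genes of secondary and tertiary granules tested, 4 were higher, those 3 and Cybb, with a median of -0.33. These 4 were the only granule genes of that list with a fold change above 0. Over all genes 1.63% were called higher.

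Among endothelial genes, some of large vessels and of signalling were called, and no sinusoidal marker was. The 19 sinusoidal markers had 0 called and a median of -0.04. Stab2, a scavenger receptor of sinusoidal endothelium, stood at 259, 2000 and 1430 CPM at POD4 and at 1470, 2250 and 2060 CPM at POD2 (-0.17 ± 0.24, edgeR adjusted p = 0.864), and Kdr, the main VEGF receptor, had a fold change of 0.05 ± 0.22. Of 15 large vessel markers 3 were lower and 0 higher, against 0.328% of all genes called lower. The median of the list was -0.19 and 7 of the 15 had a fold change above 0, so the list did not fall as a whole. Wnt9b, a Wnt ligand of central vein endothelium, stood at 17, 19.9 and 16.7 CPM at POD4, against 60.8, 53.6 and 36.1 CPM at POD2 (-1.45 ± 0.21, edgeR adjusted p = 0.00953). Thbd, the anticoagulant receptor thrombomodulin, stood at 82.1, 143 and 133 CPM at POD4, against 309, 385 and 296 CPM at POD2 (-1.26 ± 0.17, edgeR adjusted p = 0.00695). The POD4 libraries all lay below the POD2 libraries for both genes, as they did for 4.49% of all genes. Replicate 1 of POD4 lay below all POD2 libraries for all 19 sinusoidal markers and for 8 of the 15 large vessel markers. Its place therefore adds little for these genes. Lhx6, a transcription factor, fell by 0.92 on the log2 scale.

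Among secreted factors and receptors, Inhbb, a subunit of activin B, stood at 8.18, 35.9 and 34.5 CPM at POD4, against 60.5, 85.5 and 71.4 CPM at POD2 (-1.04 ± 0.17, edgeR adjusted p = 0.0122). Ackr3, a scavenging chemokine receptor, stood at 23.6, 34.2 and 29.5 CPM at POD4, against 57.4, 64.4 and 57.6 CPM at POD2 (-0.91 ± 0.14, edgeR adjusted p = 0.0111). Both were lower in every POD4 library. In the lists that hold Inhbb and Ackr3, replicate 1 of POD4 lay below all POD2 libraries for 11 of 29 and 16 of 25 genes tested. Its place therefore adds little here. Angpt2, which loosens vessels through the Tie2 receptor, stood at 1.5, 9.14 and 8.48 CPM at POD4, against 3.57, 4.04 and 4.36 CPM at POD2 (1.14 ± 0.19, edgeR adjusted p = 0.0131). Dll4, a Notch ligand of endothelium, stood at 14.1, 90.7 and 75.7 CPM at POD4, against 47.6, 55.6 and 51.8 CPM at POD2 (0.69 ± 0.15, edgeR adjusted p = 0.0411). For these replicate 1 of POD4 lay below POD2 and the other POD4 libraries above it. Esrrb, a nuclear receptor, and Mest, an imprinted gene, rose by 1.00 ± 0.16 and 0.91 ± 0.14 with the same position of replicate 1, and Adm, the vasodilator adrenomedullin, by 0.82 ± 0.18.

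Genes of stellate cells and fibroblasts stood higher at POD4 in all 3 libraries for many members. Their 18 markers summed to 833, 706 and 758 CPM at POD4 and to 631, 564 and 526 CPM at POD2. The median fold change was 0.64 and every POD4 library lay above every POD2 library for 10 of the 18, against 5.4% of all genes, but 1, Colec10, passed the test, against 1.63% of all genes called higher. Col14a1, a collagen that binds fibrils, stood at 23, 31.2 and 26.3 CPM at POD4, against 10.9, 12.1 and 9.64 CPM at POD2 (1.41 ± 0.15, edgeR adjusted p = 0.0043), and had the lowest p of the 24-library fit among genes that met the naming filters (1.30 ± 0.29, edgeR adjusted p = 0.999). Sod3, the extracellular superoxide dismutase, stood at 20.5, 20 and 20.9 CPM at POD4, against 10.9, 9.95 and 7.75 CPM at POD2 (1.10 ± 0.16, edgeR adjusted p = 0.00975). Ctgf, a matrix-associated growth factor, rose by 1.24 ± 0.19, Colec10, a collectin, by 0.99 ± 0.19 and Col5a1 by 0.85 ± 0.17.

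Col3a1 and Col1a2, the fibrillar collagens, were separated in all 6 libraries but did not pass. Col3a1 stood at 99.4, 46.8 and 86.7 CPM at POD4 and 34, 31 and 38.1 CPM at POD2 (0.95 ± 0.22, edgeR adjusted p = 0.0627), and Col1a2 had a fold change of 0.80 ± 0.21. Sparcl1 and Fstl1, secreted glycoproteins, had 1.06 ± 0.29 and 0.96 ± 0.23. Among complement and acute-phase genes 4 of 26 tested were higher, against 1.63% of all genes, namely C3ar1, C4b (0.99 ± 0.20), the C1 inhibitor Serping1 (0.84 ± 0.18) and factor B, Cfb (1.56 ± 0.34). Cp, which encodes ceruloplasmin, rose by 1.26 ± 0.16. Hepatocyte markers summed to 495, 147 and 140 CPM at POD4 and to 165, 116 and 125 CPM at POD2, and 0 of 19 were called.

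**Figure D4:**
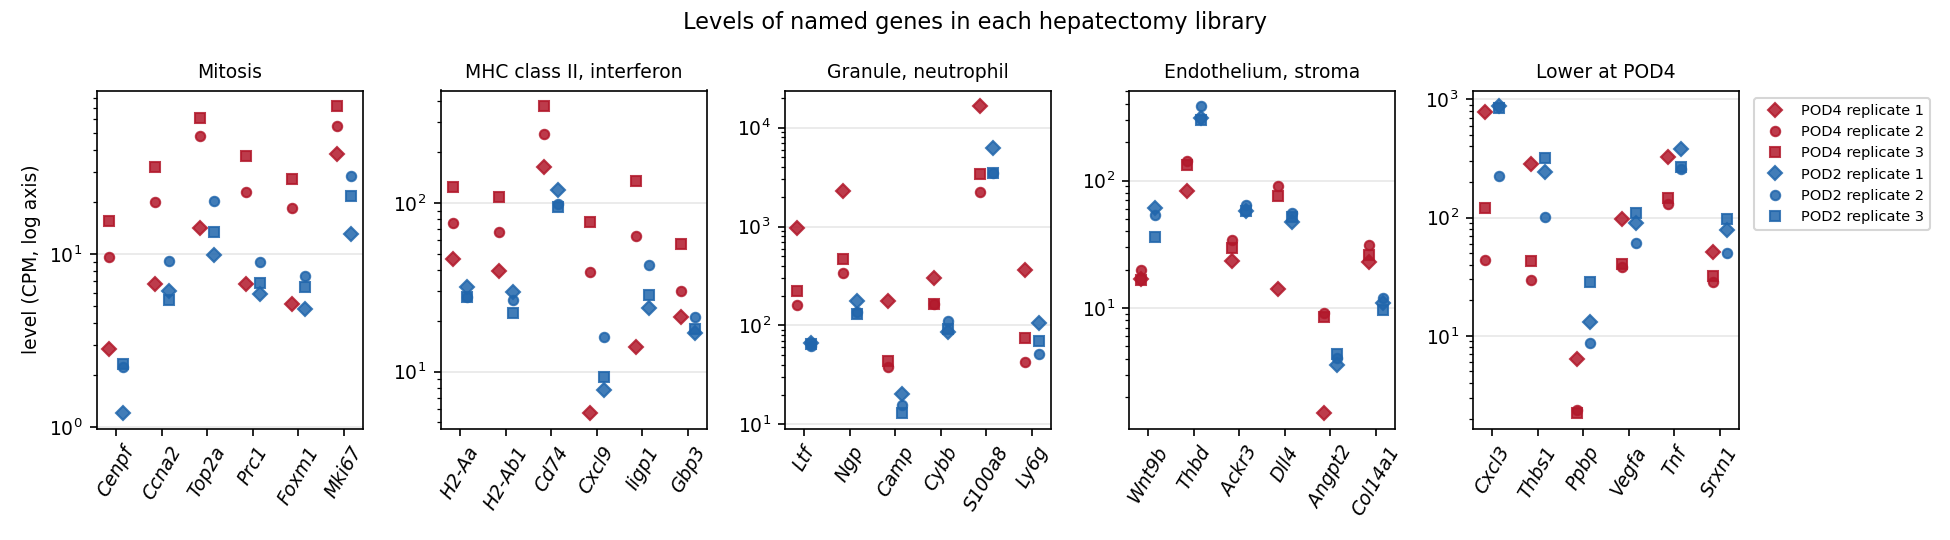
Level (CPM, log axis) of 30 named genes in each hepatectomy library, POD4 in red left of POD2 in blue, with a symbol for each replicate number and a panel for each group of genes. H2-Aa, Ltf and Col14a1 are higher in all 3 POD4 libraries than in all 3 POD2 libraries, while Top2a and Dll4 are higher in POD4 replicates 2 and 3 alone.

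Among the genes that met the naming filters, Cxcl3, Ppbp and Thbs1 had the lowest fold changes. Cxcl3, a chemokine that attracts neutrophils, stood at 777, 44.1 and 120 CPM at POD4, against 880, 224 and 845 CPM at POD2 (-2.99 ± 0.59, edgeR adjusted p = 0.032). Thbs1, which encodes thrombospondin 1, stood at 283, 29.6 and 42.7 CPM at POD4, against 243, 101 and 316 CPM at POD2 (-2.61 ± 0.41, edgeR adjusted p = 0.0115). Replicate 1 of POD4 lay within the POD2 range for both, and replicate 2 of POD2 lay well below the other POD2 libraries. Ppbp, the platelet basic protein, stood at 6.43, 2.34 and 2.22 CPM at POD4, against 13, 8.62 and 28.7 CPM at POD2 (-2.88 ± 0.47, edgeR adjusted p = 0.0131), with no overlap in the 6 libraries. Every POD4 library lay below every POD2 library for 4.49% of all genes. Platelet markers as a list were called in 1 of 7 tested, Ppbp, against 0.328% of all genes called lower, with a median of -0.77.

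Tnf, the inflammatory cytokine, stood at 328, 131 and 147 CPM at POD4, against 380, 256 and 268 CPM at POD2 (-1.12 ± 0.20, edgeR adjusted p = 0.0201). Vegfa, the main growth factor of endothelium, stood at 96.6, 38 and 40.6 CPM at POD4, against 89.7, 61.4 and 109 CPM at POD2 (-1.14 ± 0.22, edgeR adjusted p = 0.03). Both were lower in replicates 2 and 3 of POD4, while replicate 1 lay within the POD2 range. The matrix proteoglycan gene Vcan fell by 2.11 on the log2 scale, and Nt5e, which encodes the adenosine-forming enzyme CD73, fell by 1.95. Il23a, a cytokine subunit, fell by 1.64, Hilpda, a lipid droplet protein, fell by 1.74, and Pdpn, podoplanin, fell by 1.61. Basp1 fell by 1.88. Acot1, an acyl-CoA thioesterase, stood at 1.59, 2.67 and 2.12 CPM at POD4, against 10.2, 5.36 and 12.8 CPM at POD2 (-1.98 ± 0.35, edgeR adjusted p = 0.0188). Srxn1, an antioxidant enzyme, fell by 1.33, and Hspa1a, the inducible heat shock protein, fell by 1.41 (edgeR adjusted p = 0.0479). Acot1, Hspa1a and Vcan were lower in all 3 POD4 libraries than in any POD2 library, as were 4.49% of all genes. For Nt5e, Il23a, Hilpda, Pdpn, Basp1 and Srxn1 replicate 1 of POD4 lay within the POD2 range.

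Genes tied to suppressive and growth-promoting roles mostly did not pass. Il10, the anti-inflammatory cytokine, stood at 17.9, 15.3 and 25.4 CPM at POD4 and at 4.72, 10.7 and 3.13 CPM at POD2, with no overlap (1.71 ± 0.39, edgeR adjusted p = 0.0534). Arg1, the arginase of suppressive myeloid cells, had a fold change of -0.98 ± 0.35, Cd274, which encodes PD-L1, 0.46 ± 0.21, Il6 -0.32 ± 0.25 and Csf3, which encodes G-CSF, -1.12 ± 0.69. Hgf, the hepatocyte growth factor, had -0.16 ± 0.25, Wnt2, a Wnt ligand of liver endothelium, -0.57 ± 0.17 and Tgfb1 -0.01 ± 0.16, with edgeR adjusted p between 0.17 for Wnt2 and 0.994 for Tgfb1. Of 28 suppressive effectors tested 1 was higher (Cybb) and 2 lower (Nt5e and Vegfa), with a median of -0.38. Of 29 angiocrine and hepatocyte growth factors 2 were higher (Ctgf and Angpt2) and 3 lower (Wnt9b, Inhbb and Vegfa). Over all genes 1.63% were called higher and 0.328% lower.

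The p53 targets Gdf15, a stress-induced cytokine, and Eda2r, a receptor of ectodysplasin, rose by 1.18 ± 0.25 and 1.18 ± 0.26, the 2 called among 21 tested, against 1.63% of all genes called higher. Of 35 inflammatory cytokines and chemokines tested 3 were higher (Cxcl9, Cxcl10 and Ccl7) and 2 lower (Cxcl3 and Tnf). Of 31 matrix genes Col5a1 was higher and Thbs1 lower, of 28 antioxidant genes Sod3 was higher and Srxn1 lower, and of 25 endothelial growth factor and Notch receptor genes Dll4 was higher and Ackr3 lower. No member was called in 17 of the 37 lists. Of cell types these were sinusoidal endothelium, hepatocytes, cholangiocytes, plasma cells, B, T and NK cells, erythroid cells, mast cells with basophils, and eosinophils. The others were primary granules, the unfolded protein response, oxidative phosphorylation, cholesterol synthesis and the immediate-early, ribosomal protein and tubulin genes. Glycolysis and hypoxia genes had 1 higher (Adm) and 1 lower (Vegfa) of 38, against 1.63% of all genes called higher and 0.328% lower, with a median of -0.50, and 21 of the 38 lay lower in both POD4 libraries than in all POD2 libraries, against 12.7% of all genes. In replicate 1 of POD4 31 of these 38 lay above all POD2 libraries, and in the 24-library fit the median was 0.11.

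**Figure D5:**
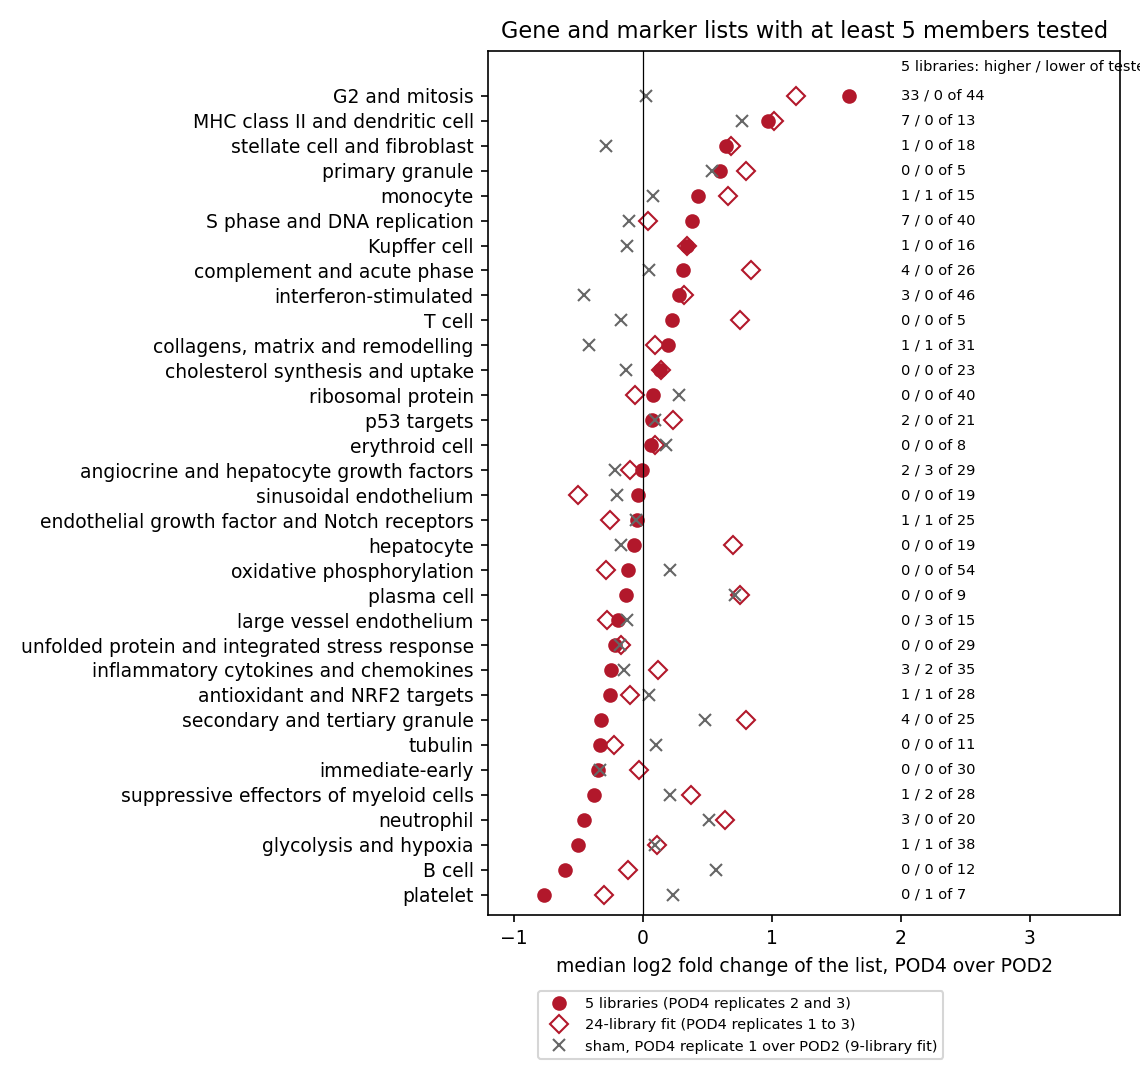
Median log2 fold change of POD4 over POD2 for each list with at least 5 members tested, from the 5-library fit (filled circles), the 24-library fit (open diamonds) and, after sham, the 9-library fit (crosses), with the counts called in the 5-library fit at the right. G2 and mitosis stands highest at 1.60, and at 0.03 in the sham comparison with 1 POD4 library. In the 24-library fit, with all 3 sham POD4 libraries, its median was 1.69 after sham and 1.19 after hepatectomy.

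The sham mice gave the same day difference without resection, POD4 over POD2. The 24-library edgeR fit called 0 of 14325 genes after sham (0%), with 4028 at an unadjusted p under 0.05. DESeq2 called 2376 higher and 124 lower and voom 4053 higher and 4626 lower. Sham POD4 held libraries unlike each other, with sinusoidal sums of 37420, 1854 and 2761 CPM, against 37010, 41350 and 44740 CPM at sham POD2, and without its replicate 1 edgeR called 3864 higher and 4372 lower. The difference of the day effects, hepatectomy minus sham, was tested as an interaction and called 0 of 14325 genes in edgeR (0%), with 775 at an unadjusted p under 0.05. DESeq2 called 3 higher and 0 lower and voom 4572 higher and 3768 lower.

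Fitted with those 9 libraries of POD4 and POD2, of either operation, that had a high endothelial score, the hepatectomy difference called 41 genes higher (0.285%) and 6 lower (0.0418%) of 14365, or 0.327% in either direction, all of them among the 218 and the 44, and 17 of the 44 G2 and mitosis genes and 0 of the 13 MHC class II genes were among them. Sham POD4 is then 1 library, assumed to vary like the other groups. The sham difference and the interaction each called 0 in this fit (0%), with 552 and 1178 genes at an unadjusted p under 0.05. The G2 and mitosis median was 1.60 after hepatectomy and 0.03 after sham, and that of the MHC class II list 0.98 after hepatectomy and 0.77 after sham. Top2a changed by -0.07 after sham in this fit, and H2-Aa by 1.15, neither of them called. In the 24-library fit, with all 3 sham POD4 libraries, the G2 and mitosis median was 1.69 after sham and 1.19 after hepatectomy. The median interaction of the list in that fit was -0.51, with 14 of the 44 genes above 0 and 0 called. The 2 fits thus differ on whether the list rose after sham.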

How the data were processed

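RNA of liver cells labelled CD11b+ Ly6G+ was sequenced in 24 libraries, 8 groups of 3. The deposited table holds raw read counts per gene symbol, made by the authors with cutadapt, STAR 2.4.2a and HTSeq on GRCm38, per the submitters' processing notes. The annotation release, strand setting and filters are not given in the sources used here, so reads of a gene and an overlapping or antisense gene, or of near-identical copies, may not be told apart.

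Counts were tested with edgeR 4.0.16 in R 4.3.3 (TMM, filterByExpr, quasi-likelihood F test, two-sided, Benjamini-Hochberg at 0.05 over all genes tested) in 1 fit of 24 libraries, repeated without replicate 1 of hepatectomy POD4. Since neither called a gene, the planned fit of the 2 groups alone was read as a result of its own. The scripts were tested on simulated counts. The SE is the fold change divided by the square root of F. CPM use the TMM factors of the 24-library fit. DESeq2 1.42.0 and limma 3.58.1 voom were alternatives, with other scalings, filters, a replicate block, an endothelial covariate and each library left out. The common coefficient of variation was 0.146 in the 5-library fit. Counting error is therefore not small beside the spread between those libraries for genes of a few CPM, such as Cenpf and Ciita. For genes of high level the number of libraries limits the precision.

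The members and 37 lists (17 of markers) were chosen with earlier results of these data known. Named genes were the 12 highest and 12 lowest fold changes past 0.05 with no overlap and a mean of at least 5 CPM, or the lowest p where none passed, plus up to 4 members per list and 17 fixed genes. Applying this rule to the 5-library fit, and naming further called members and the 9-library fit, were chosen after values were seen. Coordinates are from GENCODE M21, where 95.5% of tested symbols were found.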

Additional observations from a re-analysis of the deposited data

Results flagged for a closer look

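In 6 named genes every hepatectomy POD4 library lay on one side of every hepatectomy POD2 library and every sham POD4 library lay on the other side of every sham POD2 library. Over all 14325 genes 47 did so (0.328%), 34 of them higher after hepatectomy and lower after sham. After sham alone 11.3% of genes had every POD4 library above every POD2 library and 12.1% below. The edgeR interaction test called none of the 6 (adjusted p = 0.495 for Col14a1 and 0.713 for the other 5), and the named genes include those with the lowest p of that test, so the count of 6 is no independent evidence. Col14a1 stood at 19.6, 16.3 and 15.8 CPM in sham POD4, against 22, 32.2 and 44.5 CPM in sham POD2, with an interaction of 2.24 on the log2 scale. Sod3 stood at 24.7, 10.8 and 12.4 CPM in sham POD4, against 26, 29 and 42.9 CPM in sham POD2 (interaction 2.13). Ctgf stood at 11.3, 1.35 and 6.18 CPM in sham POD4, against 17.2, 20.7 and 57.4 CPM in sham POD2 (interaction 3.32). Ctgf stood at 4.09, 7.77 and 7.76 CPM in hepatectomy POD4, against 2.96, 3.38 and 3.52 CPM in hepatectomy POD2. The hepatectomy values of Col14a1 and Sod3, given above, also ran the other way from sham.

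Tmem56 stood at 5.26, 7.17 and 5.54 CPM in hepatectomy POD4, against 4.11, 4.28 and 2.93 CPM in hepatectomy POD2, and at 12.6, 4.41 and 5.47 CPM in sham POD4, against 15.2, 22.6 and 28.4 CPM in sham POD2 (interaction 2.21). Postn, a matrix protein, stood at 7.43, 5.84 and 7.04 CPM in hepatectomy POD4, against 2.84, 5.79 and 3.65 CPM in hepatectomy POD2, and at 6.03, 5.02 and 3.45 CPM in sham POD4, against 7.09, 10.3 and 11 CPM in sham POD2 (interaction 1.69). Hn1 went against these, at 49.9, 71.5 and 77 CPM in hepatectomy POD4, against 119, 105 and 83 CPM in hepatectomy POD2, and at 67.9, 57.2 and 57.1 CPM in sham POD4, against 55.1, 49.7 and 54.3 CPM in sham POD2 (interaction -0.82). Replicates 2 and 3 of sham POD4 had sinusoidal marker sums of 1854 and 2761 CPM, against 37010 to 44740 CPM in sham POD2, and the part of this in the sham values was not tested.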

How the results depend on the processing

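The 24-library fit called 0 genes under every other scaling, filter, covariate, block and left-out library run, except DESeq2 with 6 higher and voom with 413 higher and 112 lower. The fit without replicate 1 of hepatectomy POD4 called 0 except with DESeq2 (1 higher, 1 lower), voom (229 higher, 46 lower) and the 5 libraries by themselves (218 higher, 44 lower). The interaction moved from 0 to 3 higher with DESeq2 and to 4572 higher and 3768 lower with voom. The sham difference moved to 2376 higher and 124 lower with DESeq2 and to 4053 higher and 4626 lower with voom, and with a library left out ranged from 0 to 3864 higher and from 0 to 4372 lower.

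Of the 5-library counts of 218 higher and 44 lower, the higher count was 359 with library size alone, 419 with no low-count filter, 104 with a filter of 5 CPM in at least 3 libraries, 120 with the endothelial score as a covariate, 0 with replicate 1 of POD4 added back and 41 in the 9-library fit. The lower count was 236 with no filter, 19 with the 5 CPM filter, 158 with DESeq2, 83 with voom, 0 with replicate 1 of POD4 added back and 6 in the 9-library fit. Library size alone moved the median of all genes to 0.138 on the log2 scale, against -0.00404 with TMM, and the G2 and mitosis median to 1.73, against 1.60. Leaving out each of the 5 libraries gave 0 to 355 higher and 0 to 256 lower. The G2 and mitosis count of 33 was 0 with replicate 1 of POD4 added back and in the 24-library fit, 22 with the 5 CPM filter and with the covariate, 17 in the 9-library fit, and 0 to 36 with a library left out. The causes were not tested.

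The labels do not say whether a replicate number pairs a POD4 with a POD2 library. Deviations of libraries of the same number from their group means correlated at 0.177, 0.579 and -0.402. Of the POD4 libraries replicate 2 alone correlated best with its own number. So few correlations, with replicate 1 of POD4 so unlike the others, cannot decide whether the groups were paired. With a replicate block the 24-library fit called 0 and the 5-library fit 579 higher and 590 lower.

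For the 78 named genes that were called, 825 of 1315 alternative values kept the call, 490 kept the direction and missed the threshold, and 0 changed sign. The 78 were selected as called and the alternatives reuse the same libraries, so the constant sign is no independent evidence. Genes not called changed sign in places. With replicate 1 of POD4 added back to the 5 libraries S100a8 had 0.81, S100a9 0.82, Ly6g 1.14, Itgam 0.41 and Kdr -0.42, and in the 24-library fit 0.77, 0.77, 1.10, 0.37 and -0.43. Kdr had -0.0601 with the block and -0.0598 with the covariate. Tgfb1 had 0.14 with library size alone, 0.00485 with no filter, 0.00572 with the 5 CPM filter and 0.0236 with the block. With a library left out Stab2 ranged from -0.42 to 0.0562, Kdr ranged from -0.173 to 0.255, Hgf ranged from -0.418 to 0.0341 and Tgfb1 ranged from -0.146 to 0.132.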

Other observations

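Mki67 and Top2a, both used as marks of proliferation, did not run together over the hepatectomy days. At POD1 Mki67 stood at 61.4, 51.8 and 43.4 CPM while Top2a stood at 1.3, 0.14 and 1.02 CPM in the same libraries, and at POD4 Mki67 stood at 37.7, 55.0 and 71.9 CPM and Top2a at 14.1, 47.9 and 61.4 CPM. Cenpf was at 0, 0 and 0.292 CPM at POD1. The libraries of POD1 had neutrophil marker sums of 256600 to 306200 CPM, and the part of that in the Mki67 values was not tested.

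Col14a1 stood at 7.66, 7.68 and 9.79 CPM at hepatectomy POD1, 10.9, 12.1 and 9.64 CPM at POD2, 12.7, 24 and 20.2 CPM at POD3 and 23, 31.2 and 26.3 CPM at POD4, so that each POD4 value lay above every value of POD1 and POD2.

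The 8 genes with the lowest p of the interaction under the naming filters also held Ccdc117, Gbp3 and Vegfa, with interactions of 1.07, 2.03 and -2.71 on the log2 scale, none of them called (edgeR adjusted p = 0.713 each).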
